A study of Homo sapiens with 7 samples.

Results

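IL7R and 7 genes of the cytokine circuits around it were followed upon silencing of TP63, SOX2 or CCAT1 in esophageal squamous cell carcinoma (ESCC) cells. IL7R was chosen by its measured values, a higher mRNA level upon TP63 silencing in both lines, and its values in that comparison are therefore a description without a test. The other genes were chosen as its ligands IL7 and TSLP, its partner chain IL2RG, and the related IL15, IL15RA, IL4R and IL13RA1. These are 8 of 56236 genes to which the transcripts could be assigned.

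RNA-seq was available for TE5 and KYSE140, established human ESCC lines, with 1 library per condition and 7 libraries in all. TE5 cells carried a scramble control shRNA or an shRNA against TP63, SOX2 or CCAT1, and KYSE140 cells carried scramble, TP63 or SOX2 shRNA. All shRNAs were delivered by pLKO.1 lentivirus, so the scramble cells had also been infected, and KYSE140 cells with CCAT1 shRNA were not analysed here. Which of the study's 2 TP63 shRNAs was sequenced, one against all isoforms and one against ΔNp63α alone, could not be read from the labels.

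The estimated counts summed to between 68532611 and 98036494 per library. Counts of genes are given after TMM scaling, which removes differences of depth and composition, and are called normalized counts. Values called estimated counts are not scaled. TPM values, the length-scaled abundances of the files, are corrected for depth and for transcript length and were used to set one gene beside another. Scramble and knockdown libraries never shared a lane, and in TE5 not even a flow cell, so that shRNA and lane cannot be told apart in any comparison with scramble. The libraries of TP63 and SOX2 shRNA shared a lane within each line, in TE5 together with that of CCAT1 shRNA. TP63 moved from 26924 to 6787 normalized counts in TE5 and from 47336 to 12326 in KYSE140 with its shRNA. SOX2 moved from 12049 to 4754 in TE5 but only from 28279 to 21648 in KYSE140. The 8 squamous markers, which include TP63 and SOX2, summed to 1474 TPM with scramble in TE5, although KRT14 was nearly absent there, at 7.29 to 29.4 normalized counts, and to 13284 TPM in KYSE140.

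The IL7R protein is the alpha chain of the IL7 receptor, which it forms with the common gamma chain encoded by IL2RG, and it also pairs with CRLF2 to bind TSLP. The gamma chain serves the IL15 receptor as well, where IL15RA presents the ligand to neighbouring cells, and pairs with IL4R to bind IL4, while IL4R with IL13RA1 binds IL4 and IL13. These receptors act through JAK kinases on STAT5 or STAT6, and are best known from lymphocytes, whereas TSLP and IL15 are typical products of epithelial cells.

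IL7R lies on the plus strand at chr5:35852797-35879705 (GRCh37, the same assembly as hg19), and its full-length transcript ENST00000303115 has 8 exons. Exon 6 at chr5:35874551-35874644 encodes the membrane-spanning stretch. Its 94 bases are not a multiple of 3, so a transcript that joins exon 5 to exon 7 changes frame after the junction and encodes the soluble receptor. The junctions that distinguish these forms are shown with the last 15 bases of the upstream exon in lower case and the first 15 bases of the downstream exon in capitals, followed by exon 6 itself.
exon 5 to exon 6: tcaataatagctcagGGGAGATGGATCCTA
exon 6 to exon 7: gttatggaaaaaaagGATTAAGCCTATCGT
exon 5 to exon 7: tcaataatagctcagGATTAAGCCTATCGT
exon 6: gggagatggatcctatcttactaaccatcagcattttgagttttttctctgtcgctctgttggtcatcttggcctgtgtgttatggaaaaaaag

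IL7R, the receptor chain around which the others are grouped, had its highest level of each line upon TP63 silencing. In TE5 it stood at 5274 normalized counts with scramble, 19989 with TP63 shRNA, 7691 with SOX2 shRNA and 5566 with CCAT1 shRNA. In KYSE140 it stood at 296 with scramble, 1020 with TP63 shRNA and 516 with SOX2 shRNA. Silencing of SOX2 gave the next level in each line, and every TE5 library was above every KYSE140 library. On the TPM scale the same order held: 28.9, 120, 48.3 and 30.9 TPM in TE5 and 1.93, 6.83 and 2.89 TPM in KYSE140.

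Upon TP63 silencing IL7R was 3.79-fold higher in TE5, a log2 fold change of 1.92 with a 95% interval of 1.88 to 1.97. In KYSE140 it was 3.43-fold higher, a log2 fold change of 1.78 (1.57 to 2.00). These intervals, like the others given, cover counting error only, since each condition had 1 library, and the log2 fold changes carry a pseudocount of 1. In bulk RNA, more cells with IL7R and more IL7R RNA per cell cannot be told apart. Of 20344 genes measured in both lines, 458 had a log2 fold change above 1 in both. Of 13743 genes with at least 50 estimated counts in both scramble libraries, a limit that leaves out genes low with scramble, 28 did. Among these 28, by the smaller of both values, IL7R came after ZACN (2.00) and SLC2A3 (1.80). The gene just inside that limit was PLGLB1 (1.00) and the gene just outside was FMO4 (0.97).

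The comparison within a lane, which leaves the scramble libraries out, gave smaller values for IL7R. With TP63 shRNA it was 2.60-fold higher than with SOX2 shRNA in TE5 (log2 1.38, 1.34 to 1.42) and 1.97-fold higher in KYSE140 (log2 0.98, 0.82 to 1.15). In TE5 it was 3.59-fold higher than with CCAT1 shRNA. Both comparisons use the same TP63 shRNA libraries as the choice of the gene and were not tested.

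SOX2 silencing went with a smaller difference in IL7R. The log2 fold change over scramble was 0.54 (0.49 to 0.60) in TE5 and 0.80 (0.56 to 1.04) in KYSE140. Across both lines it was 0.65 (SE 0.15), with an adjusted p of 0.539 in edgeR's quasi-likelihood test and 0.0193 in DESeq2. This comparison shares the scramble libraries with the one that chose the gene, so it is not independent of that choice. With CCAT1 shRNA the log2 fold change was 0.08 (0.02 to 0.13) in TE5. The TE5 library with SOX2 shRNA was 0.47 (0.42 to 0.51) above the library with CCAT1 shRNA on the log2 scale, a pair in which neither library was used to choose IL7R.

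**Figure D1:**
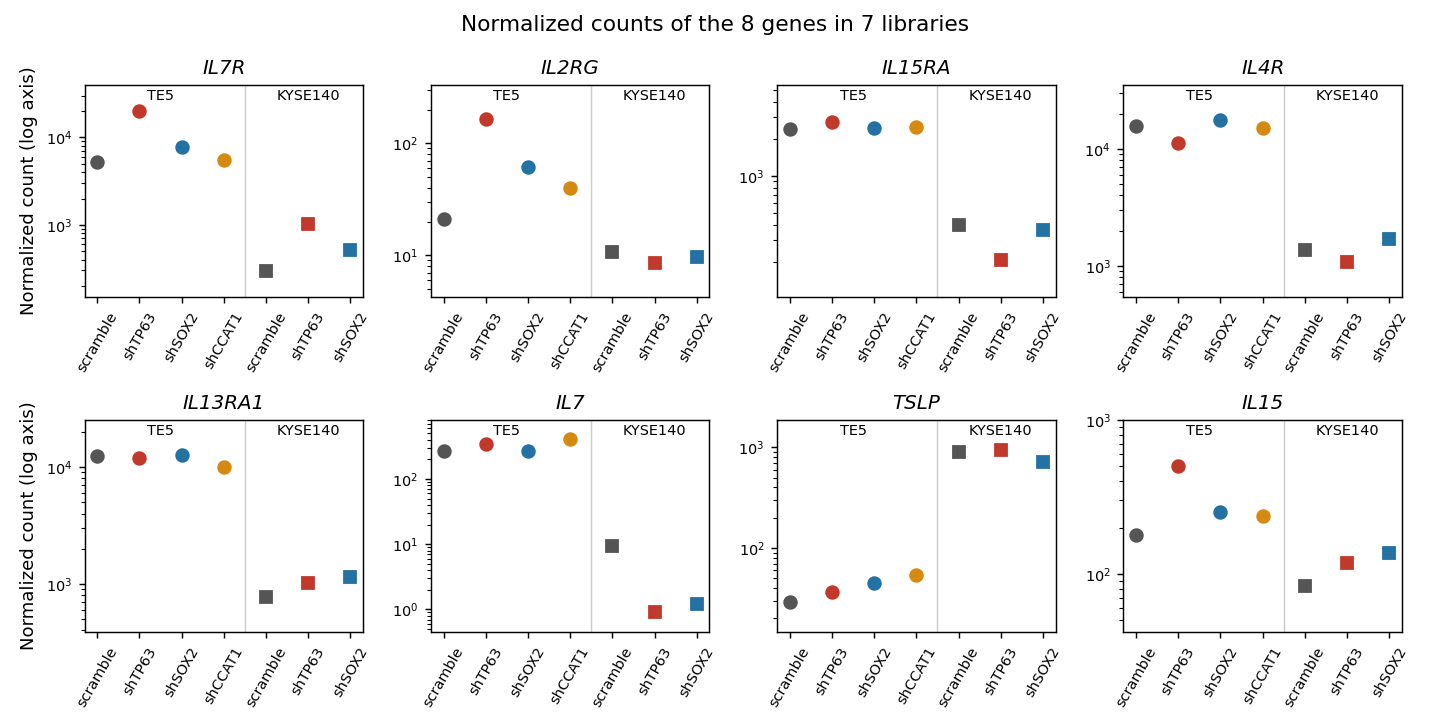
Normalized counts (log axes, each panel with its own range) of the 8 genes in the 4 TE5 libraries (circles) and 3 KYSE140 libraries (squares), 1 point per library. IL7R was highest with TP63 shRNA in each line, IL2RG and IL15 in TE5, while TSLP alone was higher in KYSE140 with scramble.

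The single transcripts of IL7R showed which forms carried the difference. Of 10 IL7R transcripts in the files, ENST00000303115, the membrane-bound form of 4626 bases, took 86.3 to 93.6% of the IL7R counts in each library. Estimated counts of transcripts, here and below, are not scaled between libraries. The TMM scales were 0.95, 1.28, 0.96 and 1.23 in TE5 (scramble, TP63, SOX2 and CCAT1 shRNA). In KYSE140 they were 0.74, 1.11 and 0.84 (scramble, TP63 and SOX2 shRNA). Ratios of estimated counts with TP63 shRNA to scramble therefore exceed those of normalized counts. Upon TP63 silencing ENST00000303115 had 23682 estimated counts against 4613 in TE5 and 975 against 194 in KYSE140. ENST00000506850, of 1004 bases, carries the junction of exon 5 to exon 7 printed above and had 995 against 183 in TE5 and 57.3 against 6.88 in KYSE140. ENST00000505093, of 917 bases, carries the same junction and had 806 against 165 in TE5 and 58.1 against 8.48 in KYSE140. Membrane-bound and exon 6-skipping transcripts were thus both higher with TP63 shRNA in each line.

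Because the skipping transcripts are short, their share was larger in TPM than in counts. Among IL7R transcripts that cover this region, those joining exon 5 to exon 7 made up 29.0% of the TPM with scramble, 29.4% with TP63 shRNA, 40.5% with SOX2 shRNA and 22.5% with CCAT1 shRNA in TE5. In KYSE140 the share was 31.0% with scramble, 40.2% with TP63 shRNA and 20.5% with SOX2 shRNA. The share was highest with SOX2 shRNA in TE5 but lowest with SOX2 shRNA in KYSE140, so the lines gave no common order. The KYSE140 shares with scramble and SOX2 shRNA rested on 15.4 and 19.6 estimated counts of skipping transcripts, against 348 to 1801 in TE5. All shares depend on how Kallisto divided reads between overlapping transcripts, which the files do not allow to be checked.

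**Figure D2:**
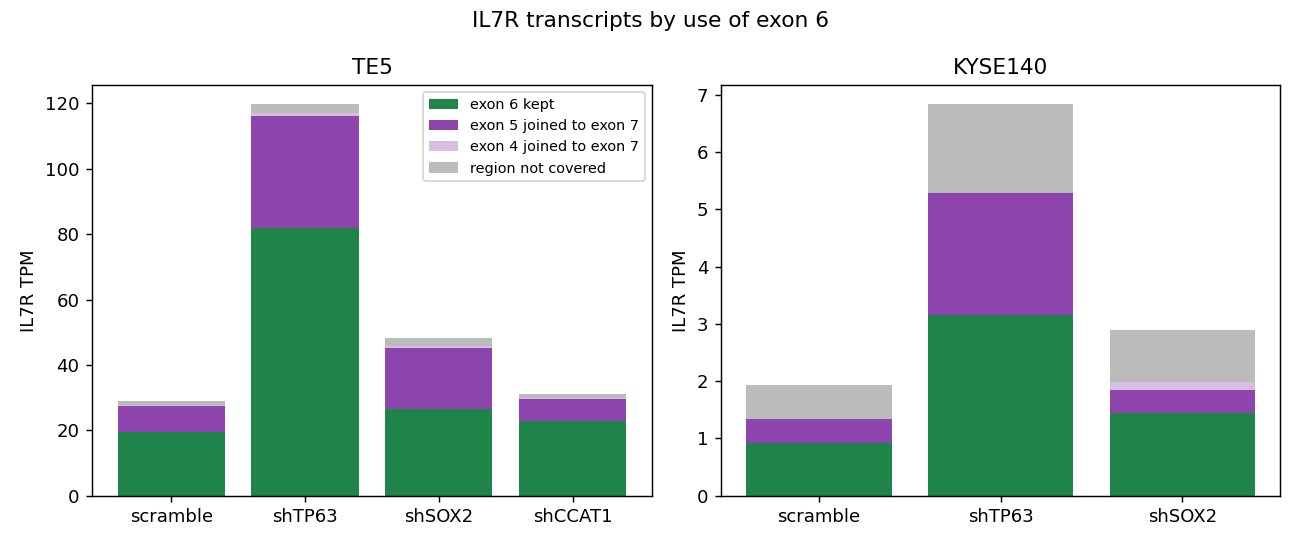
IL7R TPM in each library (bars from 0, with separate vertical axes for the lines), divided into transcripts that keep exon 6, join exon 5 to exon 7, join exon 4 to exon 7, or do not cover the region. In TE5 the exon 6-containing part went from 19.3 to 81.8 TPM and the part joining exon 5 to exon 7 from 8.03 to 34.4 TPM upon TP63 silencing.

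IL2RG, the common gamma chain at chrX:70327254-70331958 (GRCh37), was low, and its fold difference upon TP63 silencing in TE5 exceeded that of IL7R. It stood at 21.0 normalized counts with scramble, 166 with TP63 shRNA, 61.5 with SOX2 shRNA and 39.6 with CCAT1 shRNA. In KYSE140 it stood at 10.8, 8.44 and 9.62 with scramble, TP63 and SOX2 shRNA, under the minimum of 10 estimated counts in each library, so no fold change was taken there. The log2 fold change in TE5 was 2.92 (2.32 to 3.72) with TP63 shRNA, 1.51 (0.79 to 2.35) with SOX2 shRNA and 0.88 (0.14 to 1.75) with CCAT1 shRNA. Within the lane, the library with TP63 shRNA was 2.67-fold above that with SOX2 shRNA and 4.11-fold above that with CCAT1 shRNA. Across both lines the log2 fold change with TP63 shRNA was 1.48 (SE 0.99), with an adjusted p of 0.628 in edgeR.

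The IL2RG transcripts differed between the lines. The full-length ENST00000374202, of 1534 bases, had 1.19 estimated counts with scramble, 185 with TP63 shRNA, 37.6 with SOX2 shRNA and 10.6 with CCAT1 shRNA in TE5. It had 0 estimated counts in all 3 KYSE140 libraries. There, the retained-intron transcript ENST00000487883 held 8, 5.89 and 8.05 estimated counts. Transcript counts this low depend strongly on how reads are divided.

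The promoters of IL7R and IL2RG are shown because both genes were higher with TP63 and SOX2 shRNA in TE5. They cover 250 bases before to 50 bases after the RefSeq start (GRCh38.p14, not the build of the files), and capitals mark the core of the SOX motif, ACAAT on either strand. IL7R is at chr5:35856641-35856940 on the plus strand and IL2RG at chrX:71111528-71111827 on the minus strand, both written 5′ to 3′ along the gene.
IL7R promoter: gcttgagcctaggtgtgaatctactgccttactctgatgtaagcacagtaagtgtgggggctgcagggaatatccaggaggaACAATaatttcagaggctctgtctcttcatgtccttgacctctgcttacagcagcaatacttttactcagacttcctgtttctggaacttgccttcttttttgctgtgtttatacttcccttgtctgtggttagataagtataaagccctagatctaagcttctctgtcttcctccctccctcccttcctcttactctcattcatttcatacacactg
IL2RG promoter: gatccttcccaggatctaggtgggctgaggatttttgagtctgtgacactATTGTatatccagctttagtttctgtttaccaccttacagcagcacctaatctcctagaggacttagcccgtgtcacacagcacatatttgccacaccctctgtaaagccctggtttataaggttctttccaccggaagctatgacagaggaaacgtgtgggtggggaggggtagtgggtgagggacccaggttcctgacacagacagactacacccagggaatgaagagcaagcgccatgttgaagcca

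Each of these windows held 1 SOX core, 168 bases before the start in IL7R and 200 in IL2RG. The core was present in 27.4% of 35116 promoters of the same length. Of the other members, 1 promoter of TSLP and 1 of IL15RA held 2 cores each. Their other listed promoters and those of IL4R and IL13RA1 held none. The layout of a p53 family site, CNNG followed after 6 further bases by another CNNG, occurred 1 time in IL7R and 0 times in IL2RG, and was present in 74.0% of all promoters. The STAT motif TTCNNNGAA and the AP-1 motif TGANTCA were not found in either window, and were present in 7.66% and 7.71% of promoters. All motifs were counted on both strands, and a match says only that these letters are in the window. Promoters were listed for 6 of the 8 genes, and not for IL7 and IL15.

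IL15RA, the chain that presents IL15, did not follow IL7R. It stood at 2419, 2731, 2421 and 2494 normalized counts in TE5 with scramble, TP63, SOX2 and CCAT1 shRNA. In KYSE140 it stood at 396 with scramble, 207 with TP63 shRNA and 361 with SOX2 shRNA. The KYSE140 library with TP63 shRNA was the only one in which it lay well below the scramble of its line, at a log2 fold change of -0.93 (-1.19 to -0.68), and it was also -0.80 (-1.06 to -0.55) below the SOX2 shRNA library of the same lane. In TE5 the value with TP63 shRNA was 0.18 (0.10 to 0.25). Across both lines the log2 fold change was -0.32 (SE 0.33, edgeR adjusted p = 0.763). Its counts were spread over 19 transcripts, of which 17 reached 10 estimated counts in a library.

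IL4R, the alpha chain of the IL4 receptor, showed the same order of libraries in both lines. In TE5 it stood at 15632 normalized counts with scramble, 11313 with TP63 shRNA, 17577 with SOX2 shRNA and 15167 with CCAT1 shRNA. The KYSE140 values were 1368, 1080 and 1691 with scramble, TP63 and SOX2 shRNA. The library with TP63 shRNA was the lowest and that with SOX2 shRNA the highest of each line.

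The log2 fold change of IL4R with TP63 shRNA was -0.47 (-0.50 to -0.43) in TE5 and -0.34 (-0.46 to -0.22) in KYSE140. With SOX2 shRNA it was 0.17 (0.14 to 0.20) and 0.31 (0.19 to 0.42). Within the lane, TP63 against SOX2 shRNA gave -0.64 (-0.67 to -0.60) in TE5 and -0.65 (-0.76 to -0.53) in KYSE140. The fit across both lines gave -0.60 (SE 0.11) for this contrast, with an adjusted p of 0.175 in edgeR, above the limit of 0.1, and 7.06e-06 in DESeq2. For TP63 silencing against scramble it gave -0.39 (SE 0.11), with an adjusted p of 0.368 in edgeR and 0.0095 in DESeq2. The calls thus depend on the test.

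IL13RA1, which pairs with IL4R, stood at 12482, 12003, 12703 and 9914 normalized counts in TE5 with scramble, TP63, SOX2 and CCAT1 shRNA. The KYSE140 values were 775, 1009 and 1142 with scramble, TP63 and SOX2 shRNA. The TE5 values with TP63 and SOX2 shRNA differed from scramble by -0.06 (-0.09 to -0.02) and 0.03 (-0.01 to 0.06) on the log2 scale, while the KYSE140 values were 0.38 (0.23 to 0.53) and 0.56 (0.41 to 0.71). The TE5 value with TP63 shRNA turned to 0.09 when library totals replaced TMM scaling. ENST00000371666, of 4036 bases, carried 98.4 to 98.9% of its counts in TE5 and 96.1% with scramble and TP63 shRNA in KYSE140. With SOX2 shRNA in KYSE140 it carried 88.6%, and ENST00000371642, of 1096 bases, the other 11.4%.

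IL15, a ligand of the gamma chain receptors, was also higher with TP63 shRNA in TE5, beside IL7R and IL2RG. It stood at 178 normalized counts with scramble, 502 with TP63 shRNA, 251 with SOX2 shRNA and 238 with CCAT1 shRNA. The KYSE140 values were 84.0, 117 and 138 with scramble, TP63 and SOX2 shRNA. All knockdown libraries were above the scramble library of their line.

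The log2 fold change of IL15 was 1.49 (1.25 to 1.75), 0.49 (0.20 to 0.78) and 0.42 (0.14 to 0.70) in TE5 with TP63, SOX2 and CCAT1 shRNA. In KYSE140 it was 0.48 (0.04 to 0.95) with TP63 shRNA and 0.71 (0.26 to 1.19) with SOX2 shRNA. Within the lane, TP63 against SOX2 shRNA gave 1.00 (0.78 to 1.22) in TE5 and -0.23 (-0.60 to 0.15) in KYSE140. Across both lines the value upon TP63 silencing was 1.06 (SE 0.44, edgeR adjusted p = 0.476). One transcript, ENST00000529613, held most of the TE5 difference, with 20.1 estimated counts with scramble, 336 with TP63 shRNA, 81.3 with SOX2 shRNA and 50.8 with CCAT1 shRNA.

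IL7 reached the minimum of 10 estimated counts in TE5 alone. It stood at 269 normalized counts with scramble, 342 with TP63 shRNA, 265 with SOX2 shRNA and 407 with CCAT1 shRNA, so that its highest value was not in the library where IL7R was highest. In KYSE140 it had 7 estimated counts with scramble and 1 with either shRNA, too few for a fold change. The log2 fold change in TE5 was 0.35 (0.12 to 0.58) with TP63 shRNA, -0.02 (-0.28 to 0.23) with SOX2 shRNA and 0.59 (0.38 to 0.82) with CCAT1 shRNA. Its shorter transcript ENST00000379113 stood at 37.2, 154, 62.2 and 222 estimated counts in these 4 libraries.

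TSLP, the other ligand of IL7R, had the opposite distribution between the lines. It stood at 29.4, 36.6, 44.7 and 53.5 normalized counts in TE5 with scramble, TP63, SOX2 and CCAT1 shRNA, and at 895, 939 and 716 in KYSE140 with scramble, TP63 and SOX2 shRNA. With TP63 shRNA it differed from scramble by 0.31 (-0.39 to 1.05) in TE5 and 0.07 (-0.07 to 0.21) in KYSE140 on the log2 scale, and both intervals include 0. With SOX2 shRNA it was 0.59 (-0.12 to 1.34) in TE5 and -0.32 (-0.48 to -0.16) in KYSE140. Nearly all of its counts fell on ENST00000379706, the short form with 2 exons.

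**Figure D3:**
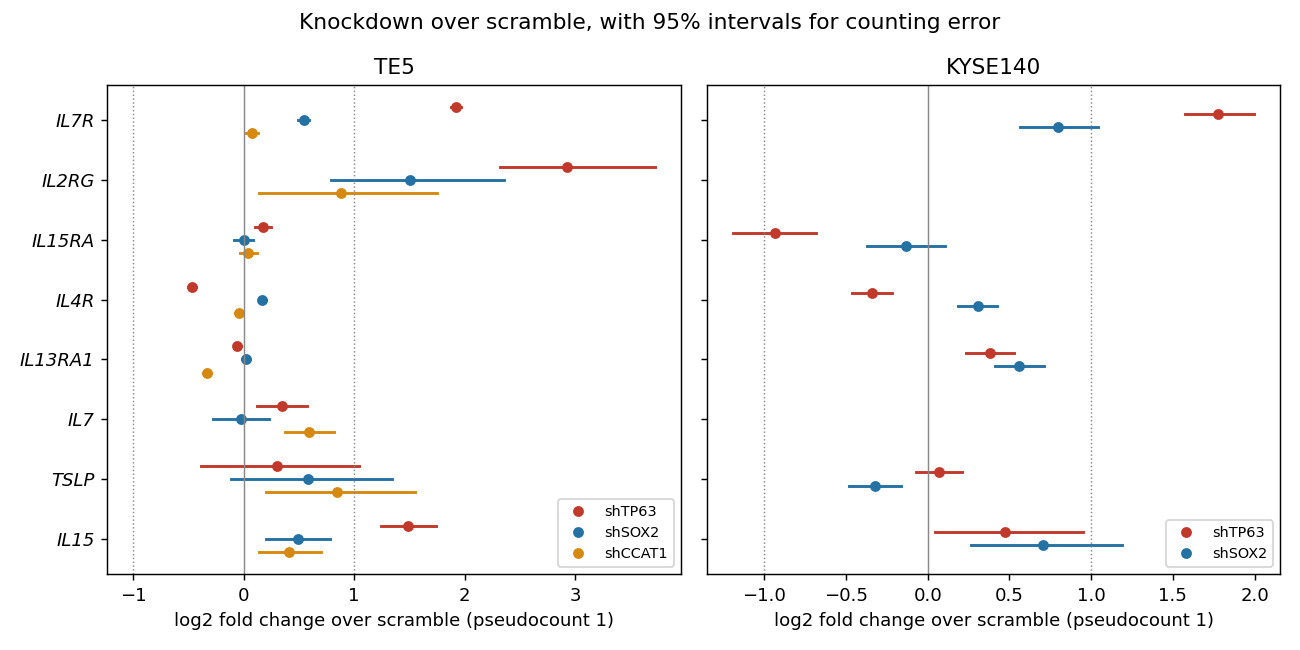
Log2 fold change of each knockdown library over the scramble library of its line (points), with 95% intervals for counting error (bars) and dotted lines at -1 and 1. The horizontal ranges of TE5 and KYSE140 differ, and IL7 and IL2RG are not shown in KYSE140, where they had under 10 estimated counts. IL7R is at 1.92 and 1.78 with TP63 shRNA, and IL4R lies below 0 with TP63 shRNA and above 0 with SOX2 shRNA in both lines.

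Counted together, 3 of 8 members (IL7R, IL2RG and IL15) had a log2 fold change above 1 with TP63 shRNA in TE5, where 14.7% of all measured genes did, and 1 of these 3 is IL7R, which was chosen for it. In KYSE140 with TP63 shRNA 1 of 6 measured members (IL7R, again the chosen gene) was above 1, against 8.87% of all genes. With SOX2 shRNA 1 of 8 (IL2RG) was above 1 in TE5, against 6.29% of all genes, and 0 of 6 in KYSE140, against 6.94%. With CCAT1 shRNA 0 of 8 were above 1, against 12.0%, a count that other settings changed. There IL2RG, at 0.88, reached 1.04 with library totals, 1.25 without scaling and 1.70 from protein-coding transcripts alone, while IL7 reached 1.18 in TPM and TSLP 1.21 without scaling. No member was below -1 in any of the 5 pairs, where 5.7, 4.98, 5.96, 4.29 and 6.35% of all genes were (TE5 with TP63, SOX2 and CCAT1 shRNA, then KYSE140 with TP63 and SOX2 shRNA). The median log2 fold change of the members with TP63 shRNA was 0.33 in TE5 and 0.22 in KYSE140, beside 0.06 and 0.05 for all measured genes. Both medians include IL7R, which was chosen for its rise in these pairs, so they do not test the members as a set. The other measured members in KYSE140 lay at 0.48 (IL15), 0.38 (IL13RA1), 0.07 (TSLP), -0.34 (IL4R) and -0.93 (IL15RA). In edgeR's fit across both lines 0.0% of 30171 features passed an adjusted p of 0.1 for TP63 against scramble and 0.00331% for each of the other contrasts, SOX2 against scramble and TP63 against SOX2, and none was a member. DESeq2 called 7.74%, 3.25% and 10.3%. At an unadjusted p under 0.05, edgeR had 1340 features higher and 1996 lower upon TP63 silencing.

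The members also differed between the lines, with a median log2 fold change of 3.06 for TE5 over KYSE140 with scramble, beside 0.13 for all genes. In that pair 6 of 8 members were above 1 on the log2 scale (27.7% of all genes were) and 1 was below -1 (21.7% of all genes were). The highest ratio was that of IL7, 25.9-fold higher in TE5 (log2 4.70, 3.77 to 6.16), which rests on 9.42 normalized counts in KYSE140. IL7R was 17.7-fold higher in TE5 (log2 4.15, 3.96 to 4.36), IL13RA1 16.1-fold, IL4R 11.4-fold and IL15RA 6.10-fold. TSLP was the member higher in KYSE140, at a log2 value of -4.88 (-5.53 to -4.38). In TPM, TE5 with scramble had 108 of IL4R, 58.1 of IL13RA1, 41.3 of IL15RA and 28.9 of IL7R but 0.44 of IL2RG and 0.23 of TSLP. KYSE140 with scramble had 7.39 of IL4R, 6.27 of TSLP, 5.68 of IL15RA and 3.54 of IL13RA1, and 1.93 of IL7R.

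Of the partner chains outside the 8 genes, CRLF2, which with IL7R forms the TSLP receptor, stood at 223 normalized counts with scramble, 911 with TP63 shRNA, 135 with SOX2 shRNA and 242 with CCAT1 shRNA in TE5. In KYSE140 it stood at 0 with scramble, 6.99 with TP63 shRNA and 4.78 with SOX2 shRNA. Its log2 fold change in TE5 with TP63 shRNA was 2.02, and the fit across both lines gave 2.21 (SE 0.87, edgeR adjusted p = 0.459). IL2RB, the beta chain shared by the IL2 and IL15 receptors, stood at 44.1, 91.9, 53 and 36.5 normalized counts in TE5 and 31.0, 5.44 and 84.9 in KYSE140. Of 10 listed receptors and ligands of the gamma chain family found in the files, 6 were measured in TE5 with TP63 shRNA and 2 of them (CRLF2 and IL2RB) were above 1, where 14.7% of all genes were. In KYSE140 0 of 3 were above 1, and 1 (IL2RB) was below -1, where 4.29% of all genes were.

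The kinases that the receptors use were present in both lines. JAK1, which binds IL7R and IL4R, stood at 5512 to 8771 normalized counts in TE5 and 8843 to 11229 in KYSE140. JAK3, the partner of the gamma chain, stood at 94.2 to 148 in TE5 and 1441 to 1844 in KYSE140, which is the reverse of IL7R. JAK2 was between 577 and 1134 and TYK2 between 5557 and 8585 over all libraries. None of the 4 kinases was past -1 or 1 in any of the 5 pairs.

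Of the STAT factors downstream, STAT5A stood at 1911 to 2702 normalized counts in TE5 but at 10.1, 20.1 and 0 in KYSE140 with scramble, TP63 and SOX2 shRNA. STAT5B stood at 7797 to 10243 in TE5 and 5257 to 6105 in KYSE140, and STAT6, the factor of IL4R, at 18686 to 22238 and 10440 to 12905. With TP63 shRNA STAT3 had 43486 against 31092 in TE5 and 12301 against 9780 in KYSE140, at an edgeR adjusted p of 0.503. None of the 7 STAT genes was past -1 or 1 in a pair where it had at least 10 estimated counts.

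Among genes of the response to these receptors, CISH, SOCS2, SOCS3 and PIM1 stayed within that limit with TP63 shRNA in both lines. CISH, a feedback inhibitor and STAT5 target, stood at 335 normalized counts with scramble and 254 with TP63 shRNA in TE5, and at 914 and 727 in KYSE140. SOCS2 stood at 2020 and 1771 in TE5 and 6881 and 5633 in KYSE140, SOCS3 at 5605 and 3202 and at 938 and 796. PIM1, a kinase induced by STAT5, stood at 4234 and 4469 in TE5 and 2851 and 2735 in KYSE140. Of 7 SOCS genes 0 were past -1 or 1 with TP63 shRNA in either line. Of 9 measured STAT5 targets in TE5 0 were above 1 and 1, CCND2, was below -1 (12207 normalized counts with scramble and 4612 with TP63 shRNA), and of 8 in KYSE140 none was past either limit. The median log2 fold change of the STAT5 targets was -0.19 in TE5 and -0.11 in KYSE140, beside 0.06 and 0.05 for all genes. Of 9 measured STAT6 targets, which include IL4R, 2 were above 1 in TE5 with TP63 shRNA and none was below -1. These were TGM2, a transglutaminase, at 211 normalized counts with scramble and 1084 with TP63 shRNA, and the chemokine CCL17, at 103 and 291. In KYSE140, TGM2 was the 1 of 7 above 1, at 10.3 and 23.4, and ALOX15 the 1 below -1, at 107 and 43.1.

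**Figure D4:**
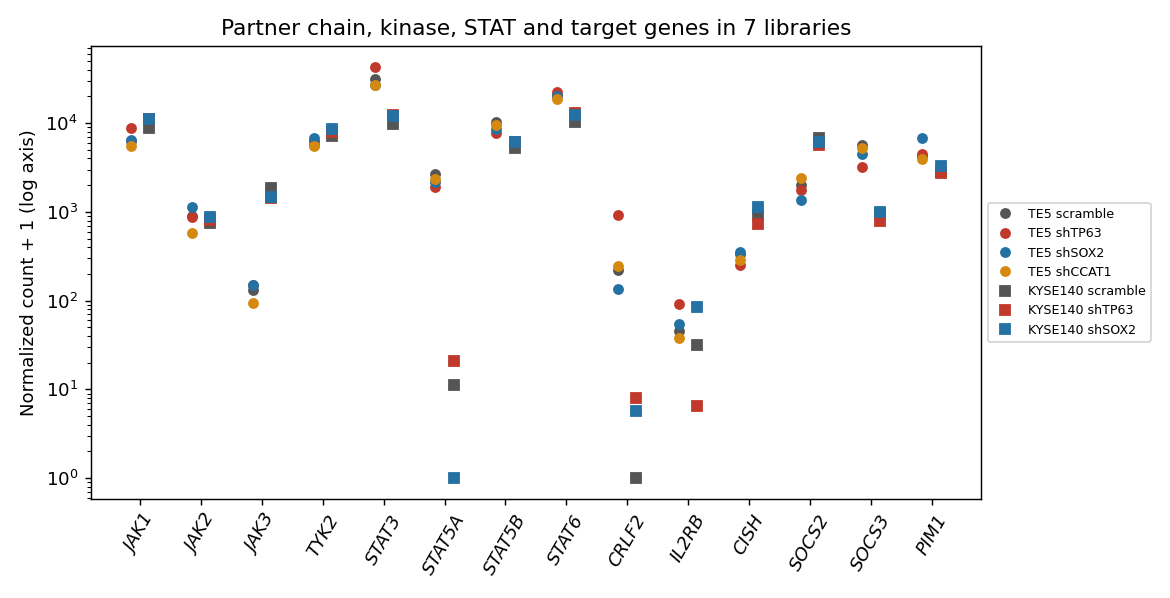
Normalized counts plus 1 (log axis) of 4 JAK kinases, 4 STAT factors, the partner chains CRLF2 and IL2RB, and 4 genes induced by these receptors, in TE5 (circles) and KYSE140 (squares), coloured by shRNA. CRLF2 and STAT5A lie at 135 or more in TE5 and at 20.1 or less in KYSE140, and JAK3 is higher in KYSE140.

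Among 21 other cytokine receptors of this class, 18 were measured with TP63 shRNA in TE5, of which 3 (IL6R, IL6ST and IL12RB2) were below -1. In KYSE140 1 of 16 (PRLR) was above 1 and none was below -1. IL6R and IL6ST, both chains of the IL6 receptor, are named here after their values were seen. IL6R moved from 12686 to 2992 normalized counts in TE5 and from 3831 to 2191 in KYSE140 with TP63 shRNA. IL6ST went from 9042 to 4465 and from 1758 to 915. Their log2 fold changes across both lines were -1.41 (SE 0.31, edgeR adjusted p = 0.317) and -0.96 (SE 0.11, adjusted p = 0.287). Of all listed genes, TP63 itself was the only one past the same limit in both lines with at least 50 estimated counts in the higher library of each pair.

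Markers of lymphocytes, in which IL7R is usually studied, were close to 0. The 9 T and NK cell markers summed to between 0.78 and 2.21 TPM per library and CD3D had no count in any of the 7. The 5 B cell markers summed to between 0.30 and 1.86 TPM. With TP63 shRNA in TE5 the T and NK sum was 1.97 TPM against 0.98 with scramble, beside 120 and 28.9 TPM of IL7R. Other marker lists also moved in that library. The 6 myeloid markers went from 73.0 to 123 TPM, nearly all CD68, with TYROBP at 0. The 6 fibroblast markers went from 15.4 to 27.1 TPM. Of these, 3 of 4 measured ones (COL1A2, COL3A1 and DCN) were above 1 on the log2 scale, where 14.7% of all genes were. The same 3 were above 1 with SOX2 shRNA in TE5, where 6.29% were. In KYSE140 with TP63 shRNA 0 of 3 measured fibroblast markers were above 1. There the fibroblast sum went from 33.3 to 39.7 TPM and the myeloid sum from 10.7 to 3.99 TPM. In TE5 CDH5, an endothelial cadherin, went from 286 to 1385 normalized counts with TP63 shRNA, and the 3 endothelial markers found in the files summed to 2.39 and 9.31 TPM. The sum of the 8 squamous markers was lower with TP63 shRNA, at 745 TPM against 1474 in TE5 and 8439 against 13284 in KYSE140. In each line 3 of the 8 were below -1 on the log2 scale, which were KRT5, KRT6A and TP63 in TE5 and KRT14, KRT13 and TP63 in KYSE140. Of all genes, 5.7% were below -1 in TE5 and 4.29% in KYSE140. The part of these markers in the IL7R values was not tested.

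The genes next to IL7R on chromosome 5 were mostly low. Of 4 protein-coding neighbours on each side, SPEF2, which begins 38084 bases away, stood at 77.3 normalized counts with scramble and 105 with TP63 shRNA in TE5. LMBRD2 stood at 2826 and 3416, and DNAJC21 at 2208 and 2224. CAPSL, 24685 bases from IL7R on the other side, stood at 3.15 and 16.4, and UGT3A2 at 4.2 and 42.1, so that 2 of 5 measured neighbours, both of few counts with scramble, were above 1, where 14.7% of all genes were. In KYSE140 SPEF2 stood at 1086 and 1141 and CAPSL at 199 and 220, and the 1 of 5 above 1 was PRLR, at 0 and 11. AGXT2 had no count, and UGT3A1 was at 7.22 or less in all libraries.

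The genes whose pattern was most like that of IL7R were sought over the 5 log2 fold changes against scramble, among 13358 genes with at least 50 estimated counts in all 7 libraries. The nearest, by Euclidean distance, were SCEL (0.68), which encodes sciellin of the cornified envelope, and ABCA12 (0.72), a lipid transporter of keratinocytes. They were followed by LINC00324 (0.86), IL36RN (0.89), GBP4 (1.01), BNIPL (1.01), BMF (1.04), STX19 (1.05), RGL1 (1.07) and CAPN5 (1.08). SCEL moved from 608 to 2004 normalized counts in TE5 and from 1759 to 4416 in KYSE140 with TP63 shRNA, so it was not a TE5 gene like IL7R. IL36RN, the antagonist of the IL36 receptor, went from 521 to 1467 and from 164 to 534. Of the members, IL15 ranked 42 and IL13RA1 2631, IL4R 9662 and IL15RA 10715. These distances include the comparison that chose IL7R and share its scramble libraries, and describe 5 pairs only.

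**Figure D5:**
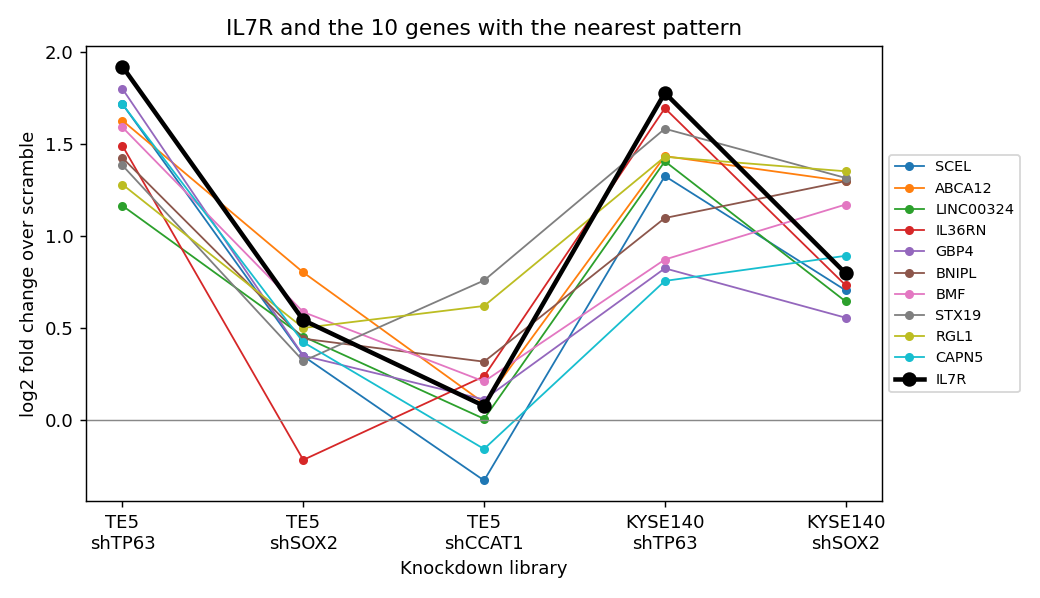
Log2 fold change over the scramble library of the line for IL7R (black) and the 10 genes nearest to it, in the 5 knockdown libraries (lines join the points of one gene for reading only). All 11 genes lie above 0.7 with TP63 shRNA in both lines, and IL7R is the highest of them in both.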

How the data were processed

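RNA-seq of 7 libraries (scramble, TP63, SOX2 and CCAT1 shRNA in TE5, scramble, TP63 and SOX2 shRNA in KYSE140) was analysed. The 100 bp paired-end reads were pseudoaligned by the authors to Ensembl transcripts of hg19 with Kallisto. The version of Kallisto is not given in the sources used here. The authors deposited an estimated count, not scaled between libraries, and a TPM value for each transcript. DESeq2 is named in the submitters' processing notes for a later step.

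The 196354 transcripts were assigned to genes by identifier with GENCODE 44 mapped to GRCh37: 182863 matched, with 93.6% of counts, and were summed per gene. The 13491 others (6.31 to 6.55% of counts per library) were kept as single features in the fit and left out of the pairs, so any that belong to a member are not in its values. Scaling was TMM in edgeR 4.0.16 (R 4.3.3). A log2 fold change of a pair was log2((first + 1)/(second + 1)) of normalized counts, where a gene had at least 10 estimated counts in 1 of both libraries, with an exact 95% Clopper-Pearson interval on the split of counts. Depth of 68532611 to 98036494 counts per library limits precision for the members of few counts, namely TSLP and IL2RG in TE5 and IL7, IL2RG and IL15 in KYSE140. Pairs of libraries were not tested.

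Both lines entered 1 fit with edgeR's quasi-likelihood test, on estimated counts rounded to whole numbers (6 libraries, cell line as block, filterByExpr, Benjamini-Hochberg adjusted p under 0.1, 2 residual degrees of freedom). This treats the 2 cell lines as replicates. The block removes the difference in level between the lines. Each p-value tests the mean effect of a contrast over both lines. That effect is judged against a spread that includes how far the effects of the shRNAs differed between the lines. DESeq2 1.42.0, other scalings, no filter and no cell line block were alternatives. The script was tested on simulated counts that were less dispersed than these data (common dispersion 0.141). That test therefore does not show how many true changes the fit would find here. Leaving out transcripts not assigned to genes was added after seeing the data. The members and lists were chosen with earlier results of these data known. Genes named are the 8 members, 14 fixed genes of the pathway, any listed gene past -1 or 1 alike in both lines with at least 50 counts, the 10 genes nearest to IL7R and 4 neighbours on each side. Some values of the listed genes are not reported here. Motifs were counted in RefSeq promoters of GRCh38.p14. Python 3.11.15 with pandas 2.3.3, numpy 2.4.6, scipy 1.17.1 and matplotlib 3.10.9 was used.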

Additional observations from a re-analysis of the deposited data

Results flagged for a closer look

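IL15RA differed in direction between the lines upon TP63 silencing, with a log2 fold change over scramble of 0.18 in TE5 and -0.93 in KYSE140, and neither counting interval includes 0. IL13RA1 differed in the other sense, with -0.056 in TE5 and 0.38 in KYSE140, although the TE5 value was 0.09 with library totals in place of TMM scaling. With 1 library per condition in each line, the difference between the lines was not tested for either gene.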

How the results depend on the processing

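No paired analysis by replicate number was possible because each condition had 1 library per line. The line served as block, and with no replicate block the fit called 0 features for TP63, SOX2 and TP63 against SOX2, where it had called 0, 1 and 1. DESeq2 called 2336, 982 and 3098, genes alone (added after seeing the data) 220, 34 and 988, and the unfiltered fit 126 for TP63 against SOX2. IL4R in TP63 against SOX2 shRNA had adjusted p-values from 7.06e-06 (DESeq2) to 1.00 (no block), with 0.0774 for genes alone. For IL7R, library totals gave log2 fold changes of 2.07 (TE5, TP63) and 0.24 (CCAT1), unscaled counts 2.35, 0.45 and 2.35 (TE5 TP63, CCAT1, KYSE140 TP63), and TPM 2.04 (TE5 TP63), 0.74 (TE5 SOX2) and 0.56 (KYSE140 SOX2). Unscaled counts took the median of all genes from 0.05 to as much as 0.62 (KYSE140, TP63). A minimum of 1 count gave 10846, 9868, 10613, 8300 and 9386 genes past -1 or 1 (TE5 TP63, SOX2, CCAT1, KYSE140 TP63, SOX2), and a minimum of 50 gave 2212, 711, 1231, 802 and 900, where 10 gave 4972, 2561, 4343, 2875 and 2757. Of 216 alternative values of the members in pairs, 169 stayed within their counting interval, 13 changed sign and 8 changed side of -1 or 1, of which 5 were with CCAT1 shRNA. IL2RG with SOX2 shRNA in TE5 fell to 0.93 in TPM, IL15RA with TP63 shRNA in KYSE140 reached -1.02 in TPM, and IL15 in the same pair reached 1.05 unscaled. The causes were not tested. Low counts limit IL7 and IL2RG in KYSE140.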
